A study of Homo sapiens with 6 samples.

Results

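MYC, MAX and the proteins that share MAX with MYC form a small network of transcription factors, and its mRNAs were followed here in a rhabdomyosarcoma cell line that received a miR-27a precursor. The members were every probe whose gene name on the array was MYC, MYCN, MYCL1, MAX, MXD1, MXD3, MXD4, MXI1, MNT or MGA, which gave 10 genes and 23 probes out of 41000 probes and 30484 gene names. RH36 is an established cell line of embryonal rhabdomyosarcoma (ERMS), a tumor of skeletal muscle type, and does not carry the PAX3/FOXO1 translocation. RH36 cells were transiently transfected with pre-miR-27a, a synthetic precursor that the cell turns into mature miR-27a (3 arrays), or with a negative pre-control precursor (3 arrays), and no untransfected cells were included. By the labels, precursors were used at 10 nM and the pre-miR-27a arrays were taken at 48 hours, whereas the study's methods give another concentration and another time, and which of them applies to the arrays was not settled. All 6 samples came from a single cell line and are labelled as biological replicates. The level of miR-27a itself was not analysed here.

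MYC, MYCN and MYCL1 encode proteins that bind DNA only as a pair with MAX, at a short palindrome called the E-box, where they raise transcription of genes of growth and ribosome production. The MXD proteins, MXI1 and MNT pair with MAX at the same sites and recruit repressor complexes, and MGA, a very large protein with a second DNA-binding domain, also pairs with MAX in a repressor complex. Because MAX is shared, the balance between its partners sets which complexes occupy an E-box. MYC and MYCN are well-known oncogenes, and amplification of MYCN is known in a part of the alveolar type of rhabdomyosarcoma.

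The mature strands of the transfected microRNA are given first, because their seed (bases 2 to 8, in capitals) is the stretch by which a microRNA recognizes its targets. Both are from RefSeq, on chromosome 19 of GRCh38.p14, minus strand, and are 21 and 22 bases long.
hsa-miR-27a-3p (chr19:13836447-13836467): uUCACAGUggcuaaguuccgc
hsa-miR-27a-5p (chr19:13836487-13836508): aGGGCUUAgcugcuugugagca
Target sites in the member mRNAs were not searched here.

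The E-box CACGTG reads the same on both strands. RefSeq promoter windows, from 250 bases before to 50 bases after each annotated start, were listed for 9 members, MYC being the one not listed. Of these, 2 windows (22.2%) held CACGTG, against 7.19% of all 27305 windows of that length. The sites lay 238 bases before the start of MXD4 and 193 bases before the start of MNT, both on the minus strand, and the E-box is in capitals in the stretches below.
MXD4 (chr4:2262331-2262358, GRCh38.p14): ggccgggccacCACGTGctgttgctaag
MNT (chr17:2401237-2401264, GRCh38.p14): cctgcccgggcCACGTGtgcgcgcgccg
A match in these letters is a description of the window and not a bound site, and windows without it may hold other binding sequences.

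Each array carried 43376 spots, of which 69.9% to 73.9% were well above background on the pre-control arrays and 74.1% to 78.0% on the pre-miR-27a arrays. The spots that the software did not find numbered 1559 to 1750 on pre-control and 3487 to 4153 on pre-miR-27a arrays, and the median local background was 74.5 to 76 and 52.5 to 53 intensity units. All arrays of a group lay on a slide of their own, so the slide and the transfected precursor cannot be told apart. Of the 12 muscle and rhabdomyosarcoma markers, 11 were measured, and all 11 were well above background on every array, MYOD1 and DES among them. None of the 11 passed by their brightest probes in limma (against 7.4% of all brightest probes), and 4 were at an unadjusted p under 0.05 (against 24.8% of all probes). With the replicate block, where 14.9% of all probes passed, MYOD1 (−0.45, limma adjusted p from 0.0787 to 0.0363) and MYOG (−0.95, from 0.14 to 0.0334) passed as lower. A further probe of CHRNA1 passed as higher without the block (0.95). Of the defining markers of other cell types, TACSTD1 and CDH1 (epithelium), PTPRC (blood cells) and PECAM1 (endothelium) were well above background on no array, whereas CD3E and CD14 (blood cells) and VWF (endothelium) were on all 6 and KRT19 (epithelium) on 2 pre-control and 3 pre-miR-27a arrays. CDH5 (endothelium) was well above background on 1 pre-control and 2 pre-miR-27a arrays. In linear units the summed signal of the 3 haematopoietic markers was 347 to 382 on pre-control and 241 to 255 on pre-miR-27a arrays, that of the 3 epithelial markers 33.7 to 57.9 and 47.1 to 56.9, and that of the 3 endothelial markers 115 to 209 and 112 to 126. CD3E (by 0.44) and CD14 (by 0.71) passed the test as lower, and their part in the results was not tested.

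Values below are quantile-normalized log2 signals, and differences are pre-miR-27a minus pre-control on the log2 scale, with the standard error (SE) of a linear model fitted in limma across all 36469 kept probes and a Benjamini-Hochberg adjusted p over all of them. A gene is given by its brightest probe, the one with the highest mean signal over the 6 arrays. A signal is relative to its own probe, so levels of different genes were not ranked. In such bulk samples, fewer cells with a transcript and less transcript per cell cannot be told apart.

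Of the 23 probes, 22 were measured on at least 5 arrays and kept, and 21 were well above background on all 6 arrays. By the brightest probe, none of the 10 genes passed the adjusted limma test (0 genes, against 7.4% of all brightest probes), where 3.07% passed as higher and 4.33% as lower, with 3 members at an unadjusted p under 0.05 (24.8% of all probes). The difference was positive in 6 members and negative in 4. Their median difference was 0.03, beside −0.04 over all 27328 gene names. Counting every kept probe, 3 of 22 passed (13.6%, against 7.83% of all probes), 2 as higher (3.95% of all probes) and 1 as lower (3.88%). The 3 were the probes of MYC, MNT and MGA that are not the brightest of their gene. With the replicate number as a block, 6 probes passed (27.3%, against 14.9% of all probes), and the added probes were the brightest ones of MYCN, MXD4 and MGA. Groups did not overlap for 5 of the 19 probes measured on all 6 arrays (26.3%), which lies below the 32.7% of all such probes. In 4 of them the pre-miR-27a arrays were higher (15.2% of all such probes) and in 1 lower (17.5%).

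**Figure D1:**
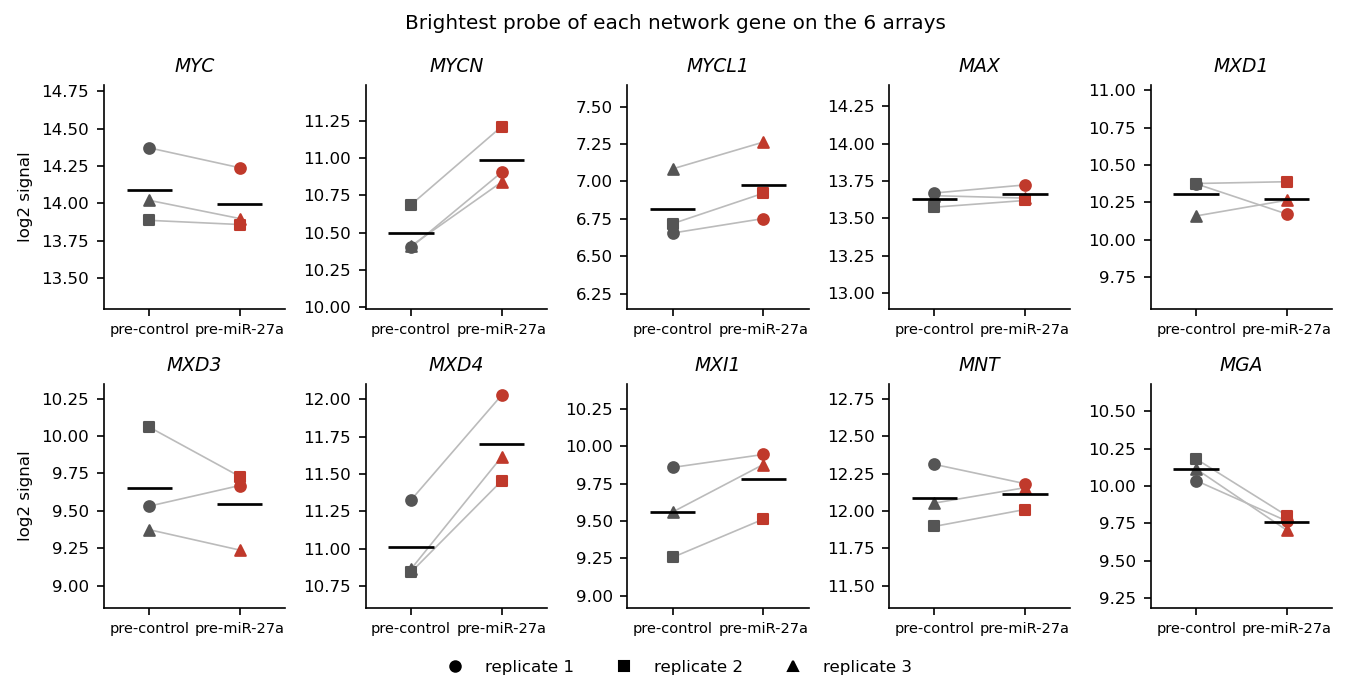
Quantile-normalized log2 signal of the brightest probe of the 10 network genes on the 6 arrays (grey, pre-control; red, pre-miR-27a), with same-numbered replicates joined and black bars for the group means. The groups do not overlap for MYCN and MXD4, both higher with pre-miR-27a, and for MGA, which is lower, and MYC and MAX overlap. Every panel has its own vertical axis.

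MYC, the activator that names the network, was measured at a high and reproducible signal. The array repeats its brightest probe (RefSeq NM_002467) in 10 spots, whose SD within an array was 0.0327 to 0.0501. The MYC signal was 14.37, 13.89 and 14.02 on pre-control replicates 1, 2 and 3 and 14.24, 13.86 and 13.90 on pre-miR-27a replicates 1, 2 and 3. The groups overlapped. The SD between the replicates of a group was larger than that between the spots of an array, although pre-miR-27a replicates 2 and 3 lay as close together as such spots. The means were 14.09 ± 0.25 and 14.00 ± 0.209 (SD, n = 3 each), a difference of −0.09 (SE 0.171, 95% interval −0.52 to 0.33, limma adjusted p = 0.787). Within replicates 1, 2 and 3 the difference was −0.133, −0.028 and −0.122, so MYC was lower in every pair, but with the replicate block the adjusted p was 0.309. Without pre-control replicate 1 the difference turned to 0.05.

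**Figure D2:**
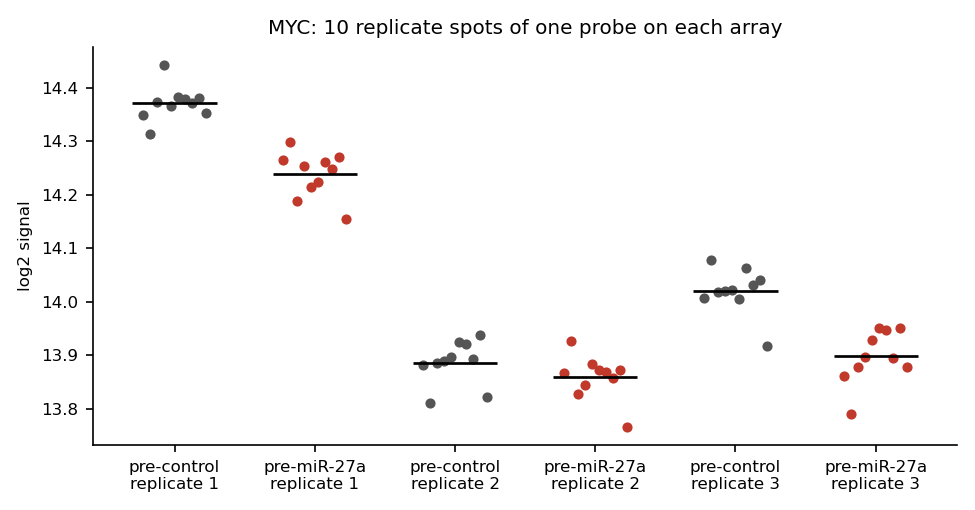
Log2 signal of the 10 spots of the brightest MYC probe on each array (points; black bar, mean), with same-numbered arrays side by side. Spots of an array lie close together, and the arrays numbered 1 lie above those numbered 2 and 3 in both groups.

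A second MYC probe moved far more. It was designed to the record M13930 and lies 5453 bases 5′ of the brightest probe. Its signal was 8.22, 8.44 and 8.45 on the pre-control arrays and 7.29 and 7.30 on pre-miR-27a replicates 1 and 3, and the spot of pre-miR-27a replicate 2 was not found and was dropped from the fit (7.31 before it was dropped). Every pre-miR-27a array lay below every pre-control array. The probe fell by 1.07 (SE 0.112, 95% interval −1.37 to −0.78, limma adjusted p = 0.0195). Leaving out each array in turn gave −1.15 to −1.04 with limma adjusted p values of 0.0435 to 0.0946. The call was kept only without pre-control replicate 1, the only such fit in which any probe on the array passed (1195 probes). The third MYC probe, to NM_002467 and 4811 bases 5′ of the brightest, was dim at 5.20 and 5.14 on pre-control replicates 1 and 3 (not found on replicate 2, which the fit dropped) and 5.38, 4.90 and 5.03 on the pre-miR-27a arrays. Its difference was −0.07 (SE 0.171, limma adjusted p = 0.854), and its sign turned under 5 alternatives. Thus the probes of MYC did not give a single value for the gene.

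MYCN, the paralog of MYC known from neuroblastoma, had its brightest probe (NM_005378, chr2:16004218-16004277 on hg18) at 10.40, 10.69 and 10.41 on pre-control arrays and 10.90, 11.21 and 10.84 on pre-miR-27a arrays. The lowest pre-miR-27a array was above the highest pre-control array, and the within-replicate differences of 0.502, 0.523 and 0.428 were close to each other. The difference was 0.48 (SE 0.141, 95% interval 0.14 to 0.83), with a limma adjusted p of 0.101, and of 0.034 with the replicate block. The other MYCN probe lies 5959 bases 5′ and its signal of 9.99, 10.34 and 9.73 on pre-control arrays and 10.08, 9.89 and 9.54 on pre-miR-27a arrays overlapped (difference −0.18, SE 0.208, limma adjusted p = 0.651).

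MYCL1, the third family member, known today as MYCL, was measured at 6.65, 6.72 and 7.08 on pre-control and 6.75, 6.92 and 7.26 on pre-miR-27a arrays. The groups overlapped and the difference of 0.16 (SE 0.181) had a limma adjusted p of 0.648. Its other probe was well above background on 1 pre-control and 2 pre-miR-27a arrays, and its difference of 1.05 (SE 0.529, limma adjusted p = 0.292) carries a wide 95% interval, from −0.26 to 2.36.

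MAX, the obligate partner, overlapped between the groups. Its brightest probe (NM_145113) was at 13.67, 13.58 and 13.65 on pre-control arrays and 13.72, 13.62 and 13.64 on pre-miR-27a arrays. The group means of 13.63 ± 0.0502 and 13.66 ± 0.0559 (SD, n = 3 each) differed by 0.03 (SE 0.0755, limma adjusted p = 0.866), and the 95% interval of −0.16 to 0.21 bounds the change. Under 75th percentile scaling the sign was the opposite (−0.05). The 2 other MAX probes, to the transcript records NM_197957 and NM_145114, gave −0.07 (SE 0.0748, limma adjusted p = 0.644) and −0.11 (SE 0.129, limma adjusted p = 0.666). No MAX probe passed in any setting tried.

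Among the repressor partners, MXD4 had the largest difference by the brightest probe. MXD proteins are mostly found in cells that leave the cycle and differentiate. The brightest MXD4 probe (NM_006454, chr4:2221078-2221137 on hg18) was at 11.33, 10.84 and 10.86 on pre-control arrays and 12.03, 11.45 and 11.61 on pre-miR-27a arrays. All 3 pre-miR-27a arrays were above all pre-control arrays, with means of 11.70 ± 0.296 and 11.01 ± 0.273 (SD, n = 3 each). The difference was 0.69 (SE 0.206, 95% interval 0.18 to 1.20), with a limma adjusted p of 0.109, and of 0.0334 with the replicate block, replicates 1, 2 and 3 giving 0.701, 0.611 and 0.75.

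The flanking MXD4 probes read the other way. One lies 1653 bases 5′ of the brightest probe and read 10.78, 10.61 and 10.84 on pre-control against 10.59, 10.24 and 10.65 on pre-miR-27a arrays. The other lies 1521 bases 3′ and read 9.79, 9.54 and 9.57 against 9.64, 9.10 and 9.36. Both were on average lower with pre-miR-27a, by −0.25 (SE 0.138, limma adjusted p = 0.334) and −0.27 (SE 0.162, limma adjusted p = 0.379), and neither passed the test. MXD4 was thus read as higher by the middle of its 3 probes alone.

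MXD1, the first described of these repressors, overlapped between groups by its brightest probe (NM_002357), at 10.37, 10.38 and 10.16 on pre-control and 10.17, 10.39 and 10.26 on pre-miR-27a arrays. The MXD1 difference was −0.03 (SE 0.104, limma adjusted p = 0.902), and the sign changed when pre-control replicate 1, pre-control replicate 2 or pre-miR-27a replicate 1 was left out, to at most 0.02. A dim MXD1 probe 27358 bases 5′ read 5.21 and 5.44 on pre-control replicates 2 and 3 (not found on replicate 1 and dropped from the fit there) and 6.36, 6.44 and 5.98 on pre-miR-27a arrays. The difference of 0.94 (SE 0.182) had a limma adjusted p of 0.0522, and of 0.12 with the replicate block, while under 5 alternatives it passed, with 0.45 as the smallest value.

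MXD3 and MXI1 have a single probe each. MXD3, a relative known from proliferating cells, read 9.53, 10.06 and 9.37 on pre-control and 9.67, 9.73 and 9.24 on pre-miR-27a arrays, a difference of −0.11 (SE 0.227, limma adjusted p = 0.816). MXI1, also called MXD2, read 9.86, 9.26 and 9.56 against 9.94, 9.51 and 9.88, a difference of 0.22 (SE 0.196, limma adjusted p = 0.551). Both sets of groups overlapped, and MXI1 was higher in every replicate pair.

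MNT is the MAX partner found in most cell types, cycling or not. Its brightest probe (NM_020310, chr17:2234326-2234385 on hg18) read 12.31, 11.90 and 12.05 on pre-control and 12.18, 12.01 and 12.16 on pre-miR-27a arrays, which overlapped (difference 0.03, SE 0.129, limma adjusted p = 0.92). The other MNT probe, to the record AF318360 and 5603 bases 5′, read 8.03, 8.17 and 8.10 on pre-control and 8.50, 8.50 and 8.51 on pre-miR-27a arrays. The 3 pre-miR-27a values were nearly equal and above all pre-control values, and the probe rose by 0.40 (SE 0.0746, limma adjusted p = 0.0366). Leaving out each array in turn gave 0.37 to 0.44 with limma adjusted p values of 0.0843 to 0.118, so no single array carried the size. The probe passed in no such fit, but only without pre-control replicate 1 did any probe on the array pass.

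MGA showed the clearest contrast between probes. The brightest probe (NM_001080541, chr15:39849147-39849206 on hg18) is the most 3′ and read 10.04, 10.18 and 10.11 on pre-control and 9.77, 9.80 and 9.70 on pre-miR-27a arrays. All pre-miR-27a arrays were lower, and the difference was −0.35 (SE 0.0786, 95% interval −0.55 to −0.16), with a limma adjusted p of 0.0546, and of 0.0461 with the replicate block. A probe 15180 bases 5′ (chr15:39833967-39834026 on hg18) read 8.14, 8.05 and 8.06 on pre-control and 8.77, 8.93 and 8.71 on pre-miR-27a arrays.

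At that 5′ probe every pre-miR-27a array was higher, and it rose by 0.72 (SE 0.0899, 95% interval 0.50 to 0.94, limma adjusted p = 0.019). Without single arrays the difference was 0.65 to 0.77 with limma adjusted p values of 0.0456 to 0.0789. The call was kept only without pre-control replicate 1, the only such fit in which any probe on the array passed. An intermediate probe 2620 bases 5′ of the brightest was dim. It read 5.15, 5.24 and 4.66 on pre-control and 5.34, 5.21 and 5.30 on pre-miR-27a arrays, which overlapped. Its difference was 0.27 (SE 0.167, limma adjusted p = 0.393). The fourth MGA probe, to the record AL713737, had 2 spots not found and was not tested. Its unfiltered signals were 6.54, 6.25 and 6.81 on pre-control and 6.90, 6.77 and 7.18 on pre-miR-27a arrays.

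**Figure D3:**
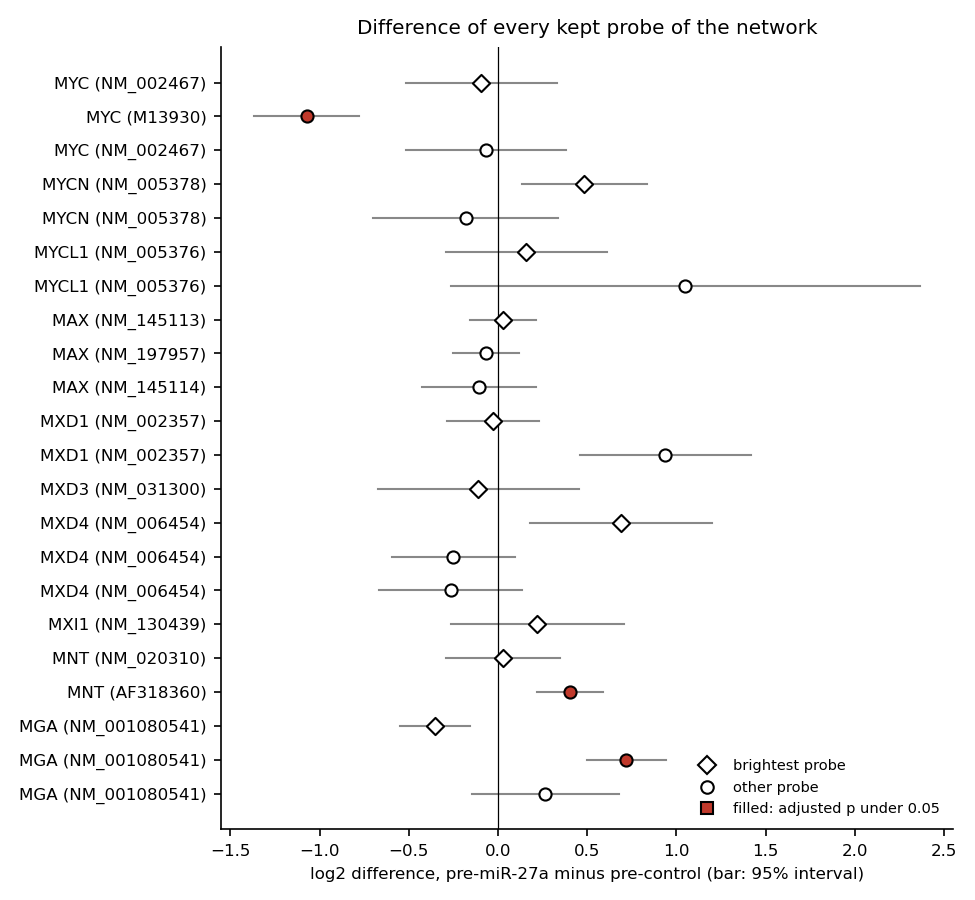
Log2 difference, pre-miR-27a minus pre-control, of the 22 kept probes, each with the RefSeq or GenBank record it was designed to (point, difference; bar, 95% interval; diamond, brightest probe of the gene; filled, adjusted p under the threshold). The filled points are a MYC probe at −1.07, an MNT probe at 0.40 and an MGA probe at 0.72, and none is a diamond.

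Since probes of a gene went different ways, the difference between the brightest kept probe and each other kept probe of the gene was itself fitted, over all 9047 such pairs on the array. This comparison was chosen after the values of the single probes were seen. Of 12 pairs in 8 member genes, 4 passed (against 16.5% of all pairs), and 8 had opposite signs (against 37.3% of all pairs). For MGA, the 5′ probe minus the brightest was −1.89, −2.13 and −2.06 on pre-control and −0.996, −0.873 and −0.997 on pre-miR-27a arrays. The 5′ probe thus gained 1.07 relative to the 3′ probe (SE 0.0893, limma adjusted p = 0.00728).

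For MXD4, the 3′ probe minus the brightest was −1.54, −1.30 and −1.29 on pre-control and −2.38, −2.35 and −2.25 on pre-miR-27a arrays. It lost 0.95 relative to the brightest (difference −0.95, SE 0.0945, limma adjusted p = 0.00774). The 5′ probe of MXD4 lost a like amount (−0.94, SE 0.181, limma adjusted p = 0.0252). These 3 pairs passed in all 9 alternatives that kept every array. The MGA pair and the 3′ pair of MXD4 also passed without each single array, with 1.02 to 1.14 and −1.03 to −0.91. Of those 6 fits, the 5′ pair of MXD4 passed in the 2 without pre-control replicate 1 (−1.08) or pre-miR-27a replicate 3 (−1.06).

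MXD1 gave the fourth pair that passed, 0.93 (SE 0.211, limma adjusted p = 0.0497), which rests on 5 arrays, had an adjusted p of 0.144 with the replicate block and passed in no fit that left out an array. The MYC pair of the M13930 probe was −1.05 (SE 0.257), with a limma adjusted p of 0.0597, and of 0.045 with the replicate block. Neither MAX pair passed, with −0.09 and −0.14. Such a within-array contrast shows that the probes changed unequally and not which of them stayed level. Which transcripts the probes detect was not tested.

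**Figure D4:**
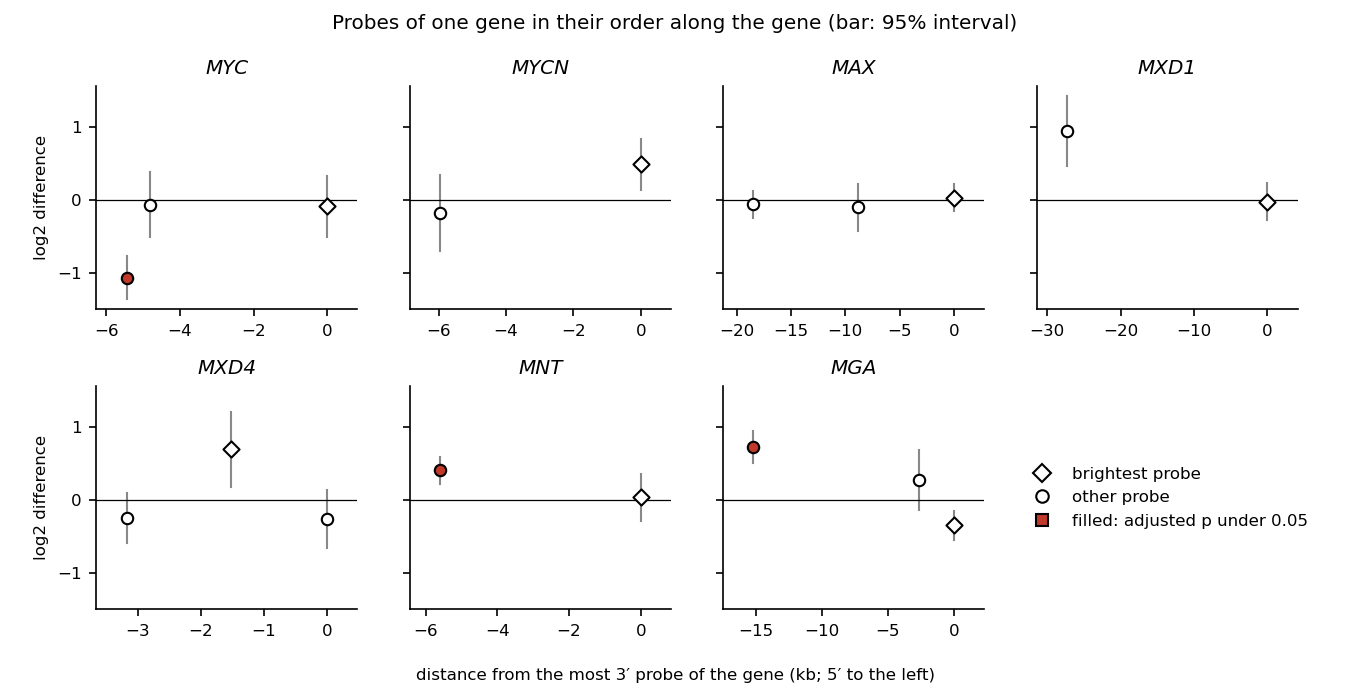
Log2 difference, pre-miR-27a minus pre-control, of each kept probe (vertical axis; bar, 95% interval) against its distance in kilobases from the most 3′ probe of its gene on the hg18 map, 5′ to the left, for 7 member genes. MGA is at 0.72 at its most 5′ kept probe and at −0.35 at its most 3′ probe. The MGA probe between them is dim, and the untested probe further 5′ is not shown. MXD4 is higher only at its middle probe, and the probes of MAX stay near 0.

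The mean of all kept probes of a gene was taken as another single value, with the spots not found left in. It gave −0.25 for MYC, 0.15 for MYCN, 0.61 for MYCL1, −0.05 for MAX, 0.45 for MXD1, −0.11 for MXD3, 0.06 for MXD4, 0.22 for MXI1, 0.22 for MNT and 0.21 for MGA. None of the 10 passed by limma, and the share of all gene means that passed is not given here. In this mean the dim MYC probe counts with its unfiltered difference of 0.43 and not with its fitted −0.07. For MXD4 and MGA the mean lies between probes that moved apart, and for MGA its sign is opposite to that of the brightest probe.

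The probes most like the brightest MYC probe in their course over the 6 arrays were, among 24408 probes well above background on all of them, those of EDN1 (endothelin, Pearson r = 0.998), DISC1 (r = 0.997) and PPAPDC1B (r = 0.995). Their own differences were −0.13, −0.14 and −0.06. These r values describe 6 arrays that share their groups and replicate numbers.

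The partners and cofactors of the network were read by a list of 20 genes, with the parallel MLX branch, the E-box factors USF1 and USF2, and the acetyltransferase complexes that MYC recruits. By their brightest probes 6 were higher and 14 lower (median −0.12), with 1 gene passing in each direction. Of all brightest probes, 3.07% passed as higher and 4.33% as lower. MLXIPL, the glucose-responsive partner of MLX also called ChREBP, read 11.37, 11.52 and 11.41 on pre-control and 10.60, 10.55 and 10.59 on pre-miR-27a arrays. It fell by 0.85 (SE 0.077, limma adjusted p = 0.0176), with no overlap, but its other probe gave −0.14 and did not pass. MYCBP2, a large ubiquitin ligase named for its binding to MYC, read 12.07, 11.76 and 12.12 against 12.64, 12.58 and 12.67 and rose by 0.65 (SE 0.117, limma adjusted p = 0.0351). Its other probe gave 0.40 and did not pass. Of the 6 fits without a single array, MLXIPL passed in the one without pre-control replicate 1 (−0.89) and MYCBP2 in none. In the remaining fits no probe on the array passed. BPTF, a chromatin remodelling subunit, passed as lower only with the replicate block (−0.39, SE 0.0945, limma adjusted p = 0.0687, and 0.0412 with the block), and its other probe passed as higher (1.13).

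Regulators of MYC protein stability and of the MYC gene, 20 genes in all, were higher in 6 and lower in 14 cases (median −0.07). None was called by limma (against 7.4% of all brightest probes), and 4 were at an unadjusted p under 0.05 (against 24.8% of all probes). FBXW7, the ubiquitin ligase subunit that marks phosphorylated MYC for degradation, read 11.72, 11.54 and 11.83 on pre-control and 11.53, 11.47 and 11.45 on pre-miR-27a arrays. Its groups did not overlap, and the difference was −0.21 (SE 0.0996, limma adjusted p = 0.258), with 0.11 at its other probe. For HUWE1, a further ubiquitin ligase of MYC, the probes that are not the brightest gave −0.08 and 1.60. Those of PPP2R5A, a phosphatase subunit that acts on MYC, gave 1.06 and 0.515. Of these probes, 1 of each gene passed.

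The long-known targets of MYC are given as the genes the network acts on. Of 35 activated genes, with functions in ribosome production, nucleotide and polyamine synthesis and glycolysis, 21 were higher and 14 lower. Their median was 0.03, and −0.11 under 75th percentile scaling. That scaling also moved the median over all probes from −0.02 to −0.09 and that of the repressed genes below to −0.08. Of the activated genes, 1 passed (against 7.4% of all brightest probes). This was SRM, the spermidine synthase, which read 13.33, 13.48 and 13.42 on pre-control and 12.92, 13.00 and 12.90 on pre-miR-27a arrays. It fell by 0.47 (SE 0.0797, limma adjusted p = 0.0303). SRM passed in no fit without a single array, but only without pre-control replicate 1 did any probe on the array pass. With the replicate block 4 of the 35 activated genes passed (against 14.9% of all probes). SRM and DNPH1 (−0.51) passed as lower, and TFRC, the transferrin receptor (0.32), and UBTF, a factor of ribosomal RNA transcription (0.48), as higher. A probe of NCL (nucleolin) that is not its brightest also passed, as higher (0.73, beside 0.02 at the brightest). Of 13 repressed genes, cell cycle inhibitors such as CDKN1A among them, 8 were higher and 5 lower (median 0.03). None was called by limma, and 0 were at an unadjusted p under 0.05 (against 24.8% of all probes). The window before the start held CACGTG in 9 of the 29 activated genes that were listed (31%), in 2 of 8 repressed genes (25%), in 2 of 16 partners (12.5%) and in 1 of 12 regulators (8.33%), against 7.19% of all windows.

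**Figure D5:**
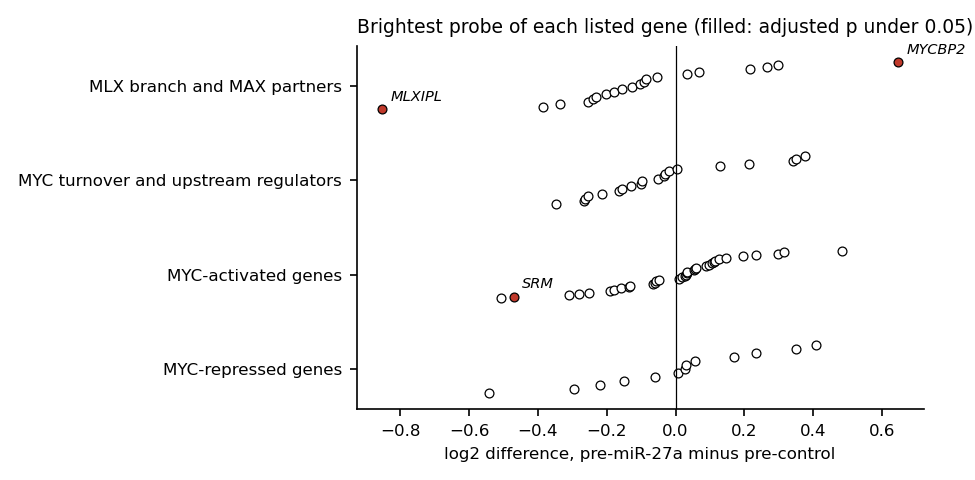
Log2 difference, pre-miR-27a minus pre-control, of the brightest probe of each gene in the 4 lists (points in order of value within a list; the vertical offset within a list only separates the points; filled, adjusted p under the threshold). The points of each list spread to both sides of 0, and MLXIPL, MYCBP2 and SRM are the filled ones.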

How the data were processed

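Total RNA of RH36 cells was labelled with Cy3 and hybridised to 1-color Agilent arrays of 60-base probes (3 arrays per group). The authors deposited, for each spot, the processed intensity of Feature Extraction 10.5.1.1, which is background-subtracted and not normalized between arrays, and a table of quantile-normalized log2 values. Control spots were left out, log2 processed signals were quantile normalized, spots not found were set to missing, spots of a probe were averaged and probes missing on more than 1 array were removed. limma 3.58.1 (R 4.3.3, with version 1.17.8 of the data.table package) compared the groups, two-sided, at an adjusted threshold of 0.05, and was tested on simulated data. The p-values cover the spread between 3 and 3 samples of a cell line, and an exact permutation test could not go below 0.1. Probe positions are those of the array files on hg18, and exon or UTR annotation for that build was not used here.

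Replicate numbers come from the labels. Deviations from the group mean correlated at 0.396, 0.456 and 0.409 between same-numbered arrays and at −0.266 to −0.123 between others (31717 probes). The main fit did not pair the arrays, and every SE, interval and adjusted p comes from it unless the block is named. A fit with the replicate number as a block was run as an alternative, and its values are given where they change a call. Members and gene lists were chosen with earlier results of these data known. Every probe of a member is named, and of each list the genes that passed and FBXW7. A blood cell marker on the list is not reported here. The study's own statistic, SAM, was not run.

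Alternatives were 75th percentile scaling, normexp (offset 50), other filters on dim or outlying spots, the replicate block, the deposited log2 values, a variance trend with robust estimation, the mean over the probes of a gene, and leaving out each array.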

Additional observations from a re-analysis of the deposited data

How the results depend on the processing

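The number of arrays limits precision, with a median SE of 0.14 log2 units over all kept probes. With the replicate block, 6 member probes passed in place of 3, 5421 of all probes in place of 2856, 4 activated genes in place of 1, 3 partners in place of 2, and 2 muscle markers in place of 0, and counts of regulators, repressed genes and markers of other cell types were the same with the block. Member probes that passed numbered 7 with normexp, 5 with the filter on probes well above background, and 0 with the mean of the probes of a gene. Calls among all probes rose as well, to 3527 with normexp and to 3632 with that filter. The filter tests only a part of the kept probes, so its counts have a smaller denominator, which is not given here. Over all probes, 75th percentile scaling gave 3256 calls, 1275 higher and 1981 lower, against 1440 and 1416. Regulators of MYC that passed numbered 1 with normexp, no filter, either other filter on dim spots or the deposited values, and 2 with the variance trend or the mean of probes, against 0, and partners numbered 1 with the mean of probes, against 2. For the mean of probes, the share of all genes that passed is not given here, so these counts and the 0 members have no background. Differences between probes of a member gene that passed numbered 7 with either other filter on dim spots or the deposited values, against 4. In the main fit 16.5% of all pairs passed. The share under those settings is not given here, so the rise is not read as one of the network. The difference turned sign under 75th percentile scaling for the brightest probes of MAX (−0.050) and MNT (−0.0030), and for the dim MYC probe of NM_002467 with normexp (0.16), no filter (0.43), the positive and significant flag (0.43), the replicate block (0.036) and the deposited values (0.43). The causes were not tested.

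Without 1 array at a time, 0 to 2 member probes, 0 to 1195 of all probes (2 and 1195 without pre-control replicate 1 and 0 otherwise), 0 to 1 partners, 0 to 0 activated genes, and 2 to 4 differences between probes of a member gene passed. The share of all pairs of probes that passed in those fits is not given here. The sign turned in at least 1 such fit for the brightest probes of MYC (−0.22 to 0.046), MAX (−0.0046 to 0.049), MXD1 (−0.10 to 0.023), MXD3 (−0.25 to 0.094) and MNT (−0.066 to 0.14), and for the dim MYC probe (−0.20 to 0.036).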
